A study of Mus musculus with 37 samples.

Results

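The levels of 10 immune checkpoint genes were examined in a mouse model of upper tract urothelial carcinoma (UTUC). The genes were chosen by name, for proteins that restrain T cells or are targets and partners of checkpoint drugs, and all 10 were found among the 24421 gene symbols of the table: the ligand genes Cd274, Pdcd1lg2, Cd80 and Cd86, the receptor genes Pdcd1, Ctla4, Lag3, Havcr2 and Tigit, and the enzyme gene Ido1. Whole transcriptome libraries were made from 37 tissue samples of female BALB/c mice that carried no engineered allele. UT was the upper urinary tract side with cancer, from mice given the bladder carcinogen N-butyl-N-(4-hydroxybutyl)-nitrosamine (BBN) in drinking water for 18 weeks (11 libraries from 10 mice, with both sides of mouse 5, named UT 5R and UT 5L). UN was the side of such mice that was judged free of cancer (7 libraries), and U was the ureter of mice given tap water (6 libraries, from both ureters of 3 mice). The bladders of the same animals gave 10 BBN bladder and 3 untreated bladder libraries. BBN started in young adult mice, and the library of BBN bladder 6 carries a letter for tumor in its column name although its title says only bladder. BBN reached the whole urinary tract, so UN was exposed tissue of the side opposite the cancer and not untreated tissue.

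Checkpoint proteins limit how strongly T cells respond. PD-1 (Pdcd1) binds PD-L1 (Cd274) and PD-L2 (Pdcd1lg2), and the pair blocks signalling through the T cell receptor. CTLA-4 takes CD80 and CD86, ligands on antigen-presenting cells, away from the activating receptor CD28. LAG-3, TIM-3 (Havcr2) and TIGIT are further receptors of activated or exhausted T cells and natural killer cells, and TIM-3 is also carried by macrophages and dendritic cells. IDO1 degrades tryptophan to kynurenine, which starves and restrains T cells, and interferon-γ is a strong inducer of both Ido1 and Cd274. Antibodies against PD-1 or PD-L1 are used in urothelial carcinoma.

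A library held between 3557697 and 18793560 counts, and 4 of the 37 were under 8000000, namely UN 6 and BBN bladder 1, 3 and 4. Levels are given as CPM, the counts scaled to a library total of 1000000, and differences as log2 fold changes with their standard error (SE) from edgeR's quasi-likelihood test across all genes. A gene was called where its Benjamini-Hochberg adjusted p was under 0.1 and its fold change at least 2. Every p measured the spread between libraries, and the 6 U libraries came from only 3 mice. Some libraries stood apart in tissue content. The summed level of 11 urothelium markers was 32.9 CPM in UN 2 against at least 1097 CPM in the other UN libraries, so that RNA of these markers was nearly absent there. Kidney tubule markers reached 2174 CPM in UT 4 and at most 11.7 CPM in the other UT libraries. The spread also differed between groups, since the common dispersion was 0.0363 in U and 0.0232 in untreated bladder but 0.352 in UT, 0.39 in UN and 0.608 in BBN bladder. In bulk tissue, fewer cells of a type and less RNA per cell cannot be told apart. Ranges of groups are given as descriptions, and the share of all genes whose ranges do not overlap was not counted.

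Of the 10 genes, 7 had a promoter window in RefSeq on GRCm38.p6, from 250 bases before to 50 bases after a transcript's start. Lag3, Ido1 and Cd86 had none. The windows of the 4 genes that the results turn on most are shown, because Cd274 and Pdcd1lg2 are neighbours in the genome that differed in their levels, and Pdcd1 and Ctla4 had the largest fold changes of the receptor genes in UT and UN against U. Cd274 (chr19:29367455-29388095) and Pdcd1lg2 (chr19:29410919-29471161) lie 22823 bases apart on the plus strand, Pdcd1 lies at chr1:94038305-94052553 on the minus strand and Ctla4 at chr1:60887000-60915832 on the plus strand (GENCODE vM21, GRCm38). The windows are chr19:29367188-29367487 for Cd274, chr19:29410669-29410968 for Pdcd1lg2, chr1:94052504-94052803 for Pdcd1 and chr1:60908775-60909074 for Ctla4, the last inside the annotated span of the gene. Each sequence runs from 5′ to 3′ on the gene's strand, and capitals mark matches to the motifs named after it.
Cd274: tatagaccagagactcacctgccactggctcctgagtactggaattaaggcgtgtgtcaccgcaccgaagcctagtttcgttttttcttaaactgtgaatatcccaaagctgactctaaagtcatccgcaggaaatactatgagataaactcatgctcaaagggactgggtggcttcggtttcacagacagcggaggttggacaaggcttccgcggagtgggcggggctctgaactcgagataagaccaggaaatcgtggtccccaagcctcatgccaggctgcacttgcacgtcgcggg
Pdcd1lg2: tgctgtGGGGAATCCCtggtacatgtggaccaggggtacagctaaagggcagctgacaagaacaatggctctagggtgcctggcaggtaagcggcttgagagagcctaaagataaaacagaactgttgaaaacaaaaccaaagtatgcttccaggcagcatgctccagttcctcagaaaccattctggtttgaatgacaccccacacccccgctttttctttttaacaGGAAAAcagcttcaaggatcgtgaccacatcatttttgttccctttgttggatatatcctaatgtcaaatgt
Pdcd1: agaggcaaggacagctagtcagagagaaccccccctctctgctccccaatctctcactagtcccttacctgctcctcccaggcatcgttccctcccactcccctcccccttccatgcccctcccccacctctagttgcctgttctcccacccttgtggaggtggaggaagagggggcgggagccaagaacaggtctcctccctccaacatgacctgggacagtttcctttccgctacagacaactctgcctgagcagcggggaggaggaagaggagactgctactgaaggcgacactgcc
Ctla4: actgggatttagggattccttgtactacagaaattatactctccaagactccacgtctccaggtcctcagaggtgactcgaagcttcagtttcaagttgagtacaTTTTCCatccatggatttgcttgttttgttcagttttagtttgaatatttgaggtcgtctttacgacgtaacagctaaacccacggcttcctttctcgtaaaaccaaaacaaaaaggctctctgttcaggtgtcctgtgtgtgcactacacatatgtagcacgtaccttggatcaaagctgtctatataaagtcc

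Both strands of the 7 windows were searched for 5 motifs. The consensus of the interferon-stimulated response element was in 0 of 7, with 3.44% of all 32851 windows holding it, and the STAT element TTCNNNGAA was in 0 of 7, with 8.3% of all windows. The NFAT motif GGAAAA was in 3 of 7 (Ctla4, Pdcd1lg2 and Tigit), against 23.4% of all windows. The AP-1 motif TGANTCA was in Cd80 and Havcr2, against 7.81%, and the NF-κB consensus was in Pdcd1lg2, against 8.46%. In the Pdcd1lg2 window shown, the NF-κB match came before the NFAT match and the matches did not overlap. These are matches of letters in a short window and say nothing of elements elsewhere.

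In untreated ureter, most of the 10 genes were near the limit of detection and Cd274 was not. Summed over the 6 U libraries, Ctla4 had 10 counts, Pdcd1lg2 12, Ido1 15, Pdcd1 19 and Tigit 23, while Cd274 had 3163 and Cd86 683. Per kilobase of exon, the median level in U was 8.88 CPM for Cd274 and 2.09 CPM for Cd86, and between 0.0282 and 0.702 CPM for the other genes. In UT the same measure was 6.0 CPM for Cd274, 5.31 for Ido1, 5.17 for Cd86, 4.25 for Pdcd1, 3.74 for Havcr2, 2.86 for Tigit and 2.74 for Ctla4, and between 0.581 and 0.882 CPM for the remaining 3. All 10 genes were detected in UT and in BBN bladder.

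**Figure D1:**
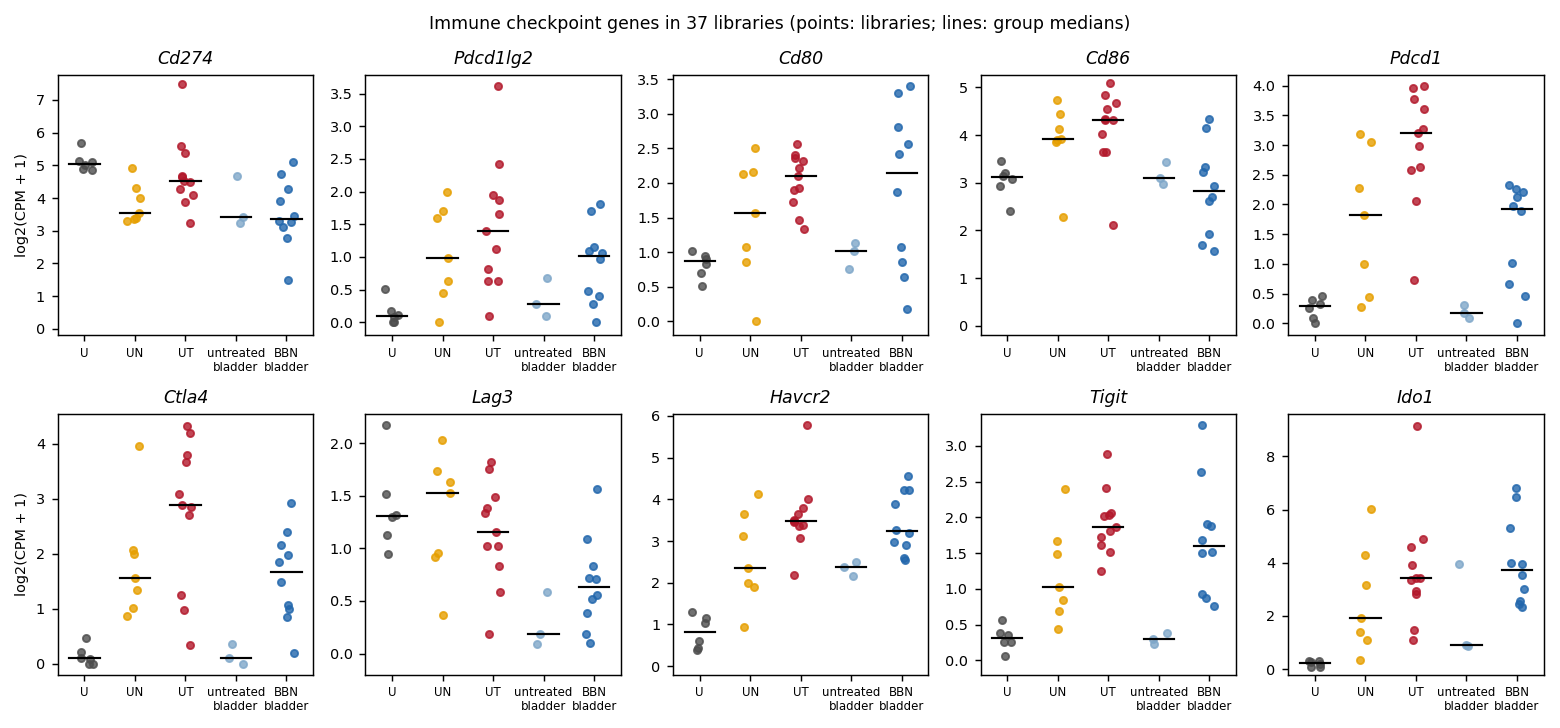
Level of each gene as log2(CPM + 1) in every library, by group, with 1 panel for a gene, 1 point for a library and a line at the group median. Pdcd1, Tigit, Havcr2, Ido1 and Cd80 were higher in all 11 UT libraries than in any of the 6 U libraries, while Cd274 in U (28.2 to 50.9 CPM) lay above most UN and UT libraries and Lag3 overlapped in the 3 ureter groups. The share of all genes with such separate ranges was not counted.

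Pdcd1, the PD-1 receptor gene, was at 0 to 0.372 CPM in U (median 0.226), at 0.214 to 8.08 CPM in UN (median 2.54) and at 0.661 to 14.9 CPM in UT (median 8.21). All 11 UT libraries were above every U library, and 6 of them were above every UN library. The log2 fold change was 5.04 (SE 0.78, adjusted p = 7.23e-05) for UT against U and 3.85 (SE 0.77, adjusted p = 0.003) for UN against U. Ctla4, the gene of the receptor that competes for CD80 and CD86, was at 0 to 0.385 CPM in U (median 0.0658), at 0.821 to 14.4 CPM in UN (median 1.95) and at 0.265 to 19.0 CPM in UT (median 6.39). Each of the 7 UN libraries and 10 of the 11 UT libraries lay above all U libraries. Ctla4 rose by 5.83 (SE 1.01, adjusted p = 0.000172) in UT and by 5.0 (SE 1.01, adjusted p = 0.00317) in UN on the log2 scale. With so few counts in U, these fold changes depend on the prior count of the fit.

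Tigit, a receptor gene of T and natural killer cells, had 0.0466 to 0.482 CPM in U, 0.358 to 4.29 CPM in UN and 1.38 to 6.41 CPM in UT. Its UT range lay wholly above its U range, and 6 of 7 UN libraries were above it. The log2 fold change against U was 3.16 in UT (SE 0.56, adjusted p = 0.000185) and 2.61 in UN (SE 0.58, adjusted p = 0.00591). Havcr2, the TIM-3 gene, had 0.31 to 1.46 CPM in U, 0.914 to 16.4 CPM in UN and 3.53 to 54.0 CPM in UT, the highest in UT 2. It rose by 3.84 (SE 0.63, adjusted p = 0.000115) in UT and by 2.90 (SE 0.63, adjusted p = 0.005) in UN on the log2 scale, and UT again lay wholly above U. Lag3, whose receptor binds MHC class II, differed from the other receptor genes. It had 0.924 to 3.52 CPM in U (median 1.48), 0.285 to 3.08 CPM in UN (median 1.89) and 0.139 to 2.53 CPM in UT (median 1.22). The 3 ranges overlapped, and the log2 fold change against U was -0.70 in UT (SE 0.50, adjusted p = 0.264) and -0.02 in UN (SE 0.56, adjusted p = 0.987), neither of them called.

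Markers of some immune cells were called higher beside the receptor genes, and others were not, where 18.7% of all genes were called higher in UT against U and 12.5% in UN against U. The summed level of 14 T cell genes was 22.0 to 55.1 CPM in U, 23.5 to 136 CPM in UN and 8.6 to 495 CPM in UT, and 11 of the 14 were called higher in UT against U and 1 (Cd5) in UN against U. The sum of 11 macrophage genes was 363 to 572 CPM in U, 258 to 2911 CPM in UN and 574 to 2097 CPM in UT, with 7 of 11 called higher in each comparison. The sum of 6 B cell genes was 5.1 to 34.5 CPM in U, 25.5 to 267 CPM in UN and 6.59 to 703 CPM in UT, with 5 of 6 called higher in UN and 6 of 6 in UT. Cd3e, a defining gene of T cells, was at 0 in 1 UT library. Of the neutrophil genes, 5 of 5 were called higher in each comparison. Regulatory T cell genes, a list that holds Ctla4 itself, summed to 16.4 to 21.5 CPM in U, 12.6 to 74.2 CPM in UN and 46.1 to 85.8 CPM in UT, with 5 of 5 called higher in UT and 2 (Ccr8 and Ctla4) in UN. Foxp3, the defining factor of these cells, had 2.87 to 3.81 CPM in U, 1.71 to 10.3 CPM in UN and 5.76 to 21.4 CPM in UT, where it was above all U libraries (log2 fold change 1.28, adjusted p = 0.00139). Of 8 dendritic cell genes, 3 were called higher in each comparison and 1 lower in UT. With both ureters of a mouse summed, 13.7% of all genes were called higher in UT against U and 0.901% in UN against U. In that fit, UT against U had 1 T cell, 5 macrophage, 5 B cell, 4 neutrophil, 4 regulatory T cell and 2 dendritic cell genes called higher, and UN against U 1 macrophage gene and 0 of the other 5 lists. The leukocyte gene Ptprc was called in UT against U and not in UN against U, 1 and 0 of 6 cytotoxic genes were called, and of 3 natural killer and 5 mast cell genes 0 were called by edgeR in either comparison, with 0 at an unadjusted p under 0.05. The part of these cells in the rise of the checkpoint genes was not tested.

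Cd274, the PD-L1 gene, was the only ligand gene of the 4 that was not called higher in UT or UN than in U. It had 28.2 to 50.9 CPM in U (median 32.2), 8.88 to 29.2 CPM in UN (median 10.5) and 8.4 to 178 CPM in UT (median 21.7). Of the 7 UN libraries, 6 were below every U library, and so were 8 of the 11 UT libraries, while UT 2 stood alone at 178 CPM. The log2 fold change was -1.27 (SE 0.53, adjusted p = 0.113) for UN against U and -0.11 (SE 0.48, adjusted p = 0.864) for UT against U, the latter 0.13 when libraries were scaled by their totals only. Without UT 2 the latter was -0.83, and without UN 9 the former was -1.56 and was called (adjusted p = 0.053). The UN difference was also called lower by DESeq2 (-1.30, adjusted p = 0.0671), by limma-trend (-1.36, adjusted p = 0.0607) and in a fit of the 2 groups alone (-1.30, adjusted p = 0.0125), with adjusted p from 0.0125 to 0.371 over 26 alternatives. Adipocyte genes are given beside it. The sum of 5 adipocyte genes was 40434 to 63439 CPM in U, 9401 to 56457 CPM in UN and 52.3 to 35696 CPM in UT, lowest in UT 2, and all 5 genes were called lower in UT against U, where 12.3% of all genes were, but 0 of 5 with both ureters of a mouse summed, where 8.23% were. In UN against U, neither edgeR nor DESeq2 called any of the 5 (0 of 5), and at an unadjusted p under 0.05 there were 0. The part of adipose tissue in the Cd274 levels was not tested.

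Pdcd1lg2, the PD-L2 gene next to Cd274, had 0 to 0.426 CPM in U (median 0.0695), 0 to 2.99 CPM in UN (median 0.973) and 0.0661 to 11.2 CPM in UT (median 1.65), again with UT 2 on top. It rose by 4.07 (SE 1.04, adjusted p = 0.00322) in UT and by 3.42 (SE 1.07, adjusted p = 0.0365) in UN on the log2 scale, and 10 of 11 UT libraries and 5 of 7 UN libraries lay above all U libraries. Both overlap an antisense gene in the annotation, and the libraries did not mark strand. Cd80 had 0.426 to 1.02 CPM in U, 0 to 4.67 CPM in UN and 1.51 to 4.90 CPM in UT, and rose by 1.77 (SE 0.46, adjusted p = 0.00349) in UT and 1.38 (SE 0.48, adjusted p = 0.0583) in UN. All UT libraries were above all U libraries. Cd86, the second CTLA-4 ligand gene, was the more abundant of the pair per kilobase in each of the 5 groups and rose least. It had 4.27 to 10.02 CPM in U, 3.85 to 25.8 CPM in UN and 3.31 to 33.2 CPM in UT, with log2 fold changes of 1.07 (SE 0.35, adjusted p = 0.0177) in UT and 1.04 (SE 0.38, adjusted p = 0.0699) in UN, close to the threshold of 2-fold.

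Ido1, the tryptophan-degrading enzyme gene, had the largest fold changes and the widest spread of the 10. It had 0.0637 to 0.248 CPM in U (median 0.184), 0.274 to 63.6 CPM in UN (median 2.78) and 1.14 to 564 CPM in UT (median 9.69). Every UN and UT library lay above every U library. The rise was 8.29 (SE 1.77, adjusted p = 0.00083) in UT and 6.08 (SE 1.68, adjusted p = 0.0199) in UN on the log2 scale. UT 2 carried 564 CPM and the next UT library, UT 5L, 28.6 CPM. Without UT 2 the fold change of UT against U was 5.70 and still called. UT 2 was also highest for Cd274, Pdcd1lg2 and Havcr2.

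In all, 8 of the 10 genes were called higher in UT against U, where 18.7% of all 15658 genes tested were called higher (30.9% in either direction), and 8 of 10 in UN against U, where the share was 12.5%. None of the 10 was called lower by edgeR, with 12.3% and 1.21% of all genes called lower. With libraries scaled by their totals only, UT against U gave 3888 genes higher and 1369 lower instead of 2921 and 1924. The median log2 fold change of the 10 was 3.5 in UT and 2.76 in UN, against 0.11 and 0.13 over all genes tested. Both comparisons share the U libraries, and their values stand side by side only. When both ureters of a mouse were summed, so that U was 3 mice, 7 genes were still called in UT against U (Cd86 had an adjusted p of 0.136), where 13.7% of all genes were called higher and 8.23% lower. In UN against U, where only 0.901% of all genes were then called higher and 0.0613% lower, 0 of 10 were called by edgeR, with adjusted p between 0.101 and 0.344 for the 8 genes and 7 of 10 at an unadjusted p under 0.05. The log2 fold changes were 5.01 for Ctla4 and 3.83 for Pdcd1. With the mouse as a random effect, Ctla4, Pdcd1, Havcr2 and Tigit were called higher and Cd274 lower in UN, where 4.8% of all genes were called higher and 3.51% lower.

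Single libraries decided the calls nearest the thresholds. Cd86 in UN against U was lost without UN 2 (log2 fold change 0.85), UN 3 (0.88), U 1 (1.0), U 2 (1.05), U 3 (1.03) or U 4 (0.93), and Cd80 without UN 3 (1.04), U 1 (1.31) or U 3 (1.24). In UT against U, Cd86 fell below 2-fold without UT 7 (0.95) or U 4 (0.95). The calls of Ctla4, Pdcd1, Havcr2, Tigit, Pdcd1lg2 and Ido1 against U held in every edgeR fit that left out 1 library, although their sizes moved. Without UT 2, UT against U gave 3.43 for Pdcd1lg2 and 3.31 for Havcr2, and without U 3 it gave 5.11 for Pdcd1lg2. UN against U gave 4.05 for Ctla4 without UN 3, 1.87 for Tigit and 2.87 for Pdcd1lg2 without UN 6, and 4.87 for Ido1 without UN 1.

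**Figure D2:**
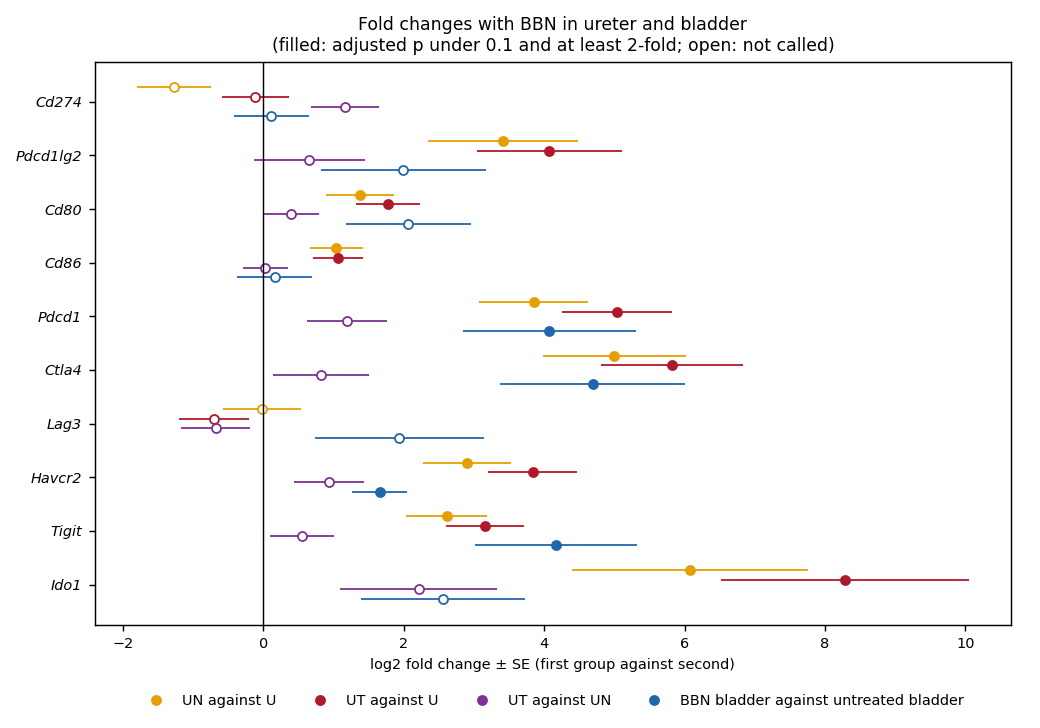
Log2 fold change (horizontal axis, first group against second) with its SE as a bar for the 10 genes in 4 comparisons, filled where called and open where not. Ido1, Ctla4 and Pdcd1 reached 8.29, 5.83 and 5.04 in UT against U, Cd274 was called in none of the 4 comparisons, and no gene was called in UT against UN.

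The comparison of UT with UN asks what sets cancer apart from exposed tissue on the other side. By edgeR, 0 of the 10 genes were called, where 5.52% of all genes were called (1.32% higher and 4.2% lower), and 2 had an unadjusted p under 0.05. The background itself was unstable, with 206 genes higher and 658 lower in the fit used here, 21 and 5 when libraries were scaled by their totals only and 0 in a fit of these groups alone. DESeq2 called 411 higher and 980 lower. Leaving out any 1 of UT 2, 5R, 5L or 10 or UN 2 or 6 left at most 12 genes higher and 14 lower, leaving out UT 3 gave 154 and 408 and UT 4 127 and 444, and the counts grew to 580 and 1199 without UN 3, 614 and 1240 without UN 7 and 438 and 1245 without UT 9. UN 6 was the shallowest ureter library, and its 10 most abundant genes held 35.5% of its counts, against 6.15% to 16.02% in the other UN libraries. Of the 10 checkpoint genes, 0 were called without it as well, with 2 at an unadjusted p under 0.05. Tissue content differed too. The 6 smooth muscle genes summed to 319 to 6475 CPM in UN and 236 to 2467 CPM in UT, with 4 of 6 called lower by edgeR and 6 by DESeq2, and 1 of 11 urothelium genes (Upk1a) was called lower. Their part in the checkpoint levels was not tested. The log2 fold change was positive for 9 of 10, with a median of 0.74 against -0.02 over all genes. It was 1.16 for Cd274 (SE 0.48, adjusted p = 0.145), 1.19 for Pdcd1 (SE 0.57, adjusted p = 0.192), 2.21 for Ido1 (SE 1.12, adjusted p = 0.213) and 0.93 for Havcr2 (SE 0.50, adjusted p = 0.237). Lag3 was the gene with a negative value, -0.68 (SE 0.49, adjusted p = 0.381). DESeq2 called 1 gene, Cd274 (adjusted p = 0.0851), while limma-trend and limma with voom weights per group called 0, with 3 and 1 at an unadjusted p under 0.05. Without UN 3, whose Ctla4 (14.4 CPM), Pdcd1 (8.08 CPM) and Havcr2 (16.4 CPM) were the highest in UN, edgeR called 3 genes: Ctla4 (1.78, adjusted p = 0.0961), Pdcd1 (1.64, adjusted p = 0.0755) and Havcr2 (1.38, adjusted p = 0.0798), in a fit that called 3.72% of all genes higher and 7.68% lower. Without UT 2, Ido1 turned to -0.37.

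In 7 mice both sides were sequenced. Cd274 was higher in UT in 6 of them: 178 against 9.22 CPM in mouse 2, 24.2 against 10.5 in mouse 6, 18.4 against 8.88 in mouse 4, 40.5 against 29.2 in mouse 9, 13.7 against 9.42 in mouse 3 and 21.5 against 18.7 in mouse 7. In mouse 1 it was lower, at 8.4 against 15.1 CPM. Pdcd1 was higher in UT in 5 of 7 mice, with 8.67 against 0.214 CPM in mouse 6 and 8.21 against 0.366 in mouse 2, and lower in mice 3 and 7. Ctla4, Tigit and Cd80 were higher in UT in 6 of 7 mice each, Pdcd1lg2 in 5, Ido1, Havcr2 and Cd86 in 4 and Lag3 in 3. Ido1 went from 63.6 CPM in UN to 6.01 CPM in UT in mouse 1, and from 0.274 to 564 CPM in mouse 2. A fit with the mouse as a block called 0 of 10 genes, and 1 reached an unadjusted p under 0.05.

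**Figure D3:**
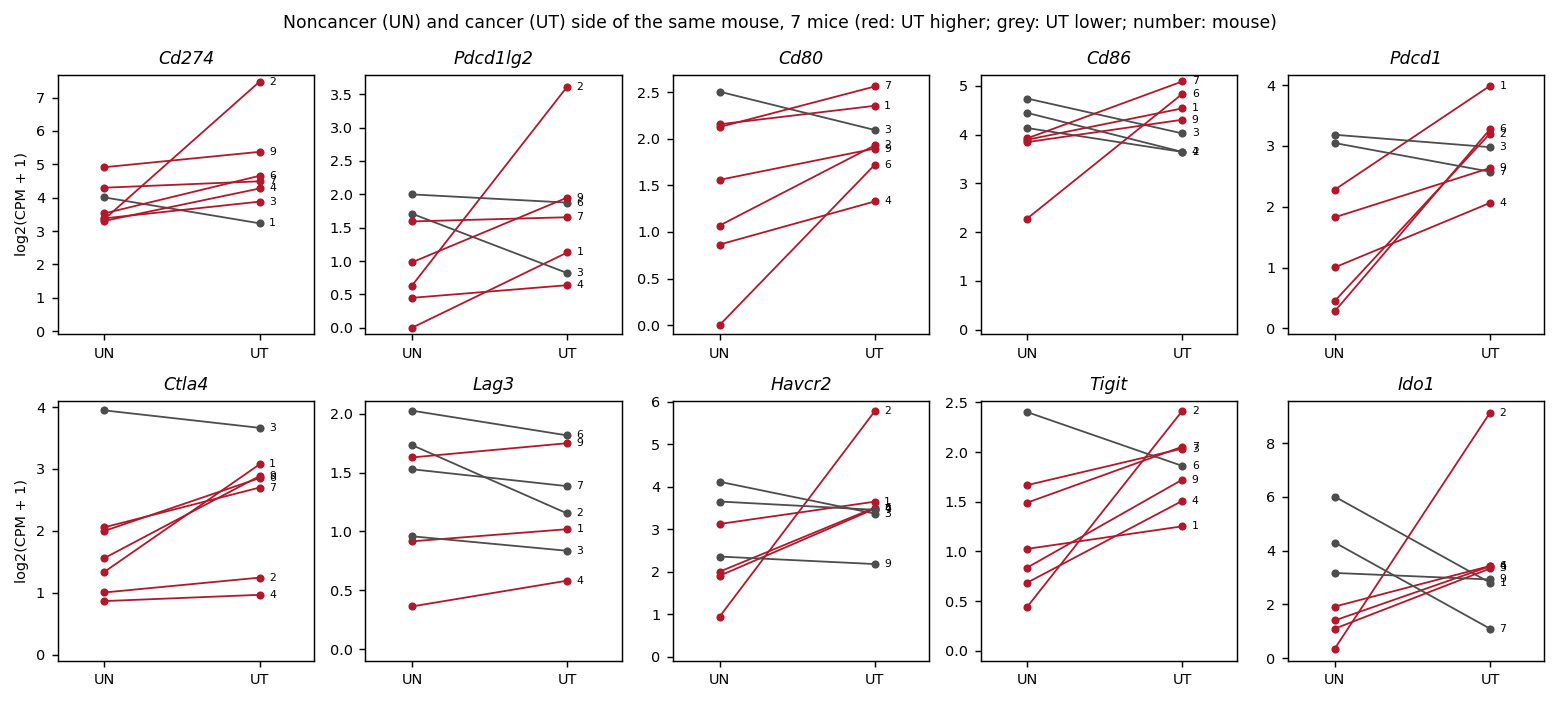
Level of each gene as log2(CPM + 1) on the noncancer (UN) and cancer (UT) side of the 7 mice with both, joined by a line that is red where UT was higher, with the mouse number at its end. Cd274, Ctla4, Tigit and Cd80 were higher on the cancer side in 6 of 7 mice, and mouse 2 had the steepest rise in Cd274 and Ido1.

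In the bladder, BBN was followed by higher levels of 4 receptor genes. Pdcd1 was at 0.0697, 0.133 and 0.241 CPM in the untreated bladders and at 0 to 4.04 CPM in the BBN bladders (median 2.81), with 9 of 10 above all untreated ones. The log2 fold change was 4.08 (SE 1.23, adjusted p = 0.051). Ctla4 was at 0, 0.0666 and 0.279 CPM against 0.144 to 6.55 CPM (median 2.2), and rose by 4.69 (SE 1.32, adjusted p = 0.0362), also with 9 of 10 above all untreated bladders. Tigit rose by 4.17 (SE 1.15, adjusted p = 0.033), from 0.169, 0.229 and 0.307 CPM to 0.685 to 8.76 CPM. Havcr2 rose by 1.66 (SE 0.39, adjusted p = 0.0131), from 3.48, 4.20 and 4.69 CPM to 4.86 to 22.8 CPM. The groups did not overlap for Tigit and Havcr2. BBN bladder 1, 3 and 4, the shallow libraries, stood apart, since their 10 most abundant genes held 21.5% to 29.5% of the counts, against 5.17% to 12.2% in the other BBN bladders and 7.42% to 7.67% in the untreated ones. Despite their low depth they had more genes detected (21516, 21682 and 21758) than the other BBN bladders (17987 to 20400). Their RNA quality was not examined here. The highest Tigit levels were those of BBN bladder 3 (8.76 CPM) and 1 (5.24 CPM). Without these 3 libraries all 4 receptor genes were still called, with 2.98 for Tigit, 4.36 for Ctla4, 4.19 for Pdcd1 and 1.78 for Havcr2. That fit called 11.3% of all genes higher and 9.02% lower.

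The other 6 genes were not called in the bladder. Ido1 had 0.836, 0.866 and 14.4 CPM in the untreated and 4.09 to 112 CPM in the BBN bladders (log2 fold change 2.56, SE 1.17, adjusted p = 0.161), and without untreated bladder 3, the library with 14.4 CPM, it was called (5.22, adjusted p = 0.072). Cd80 gave 2.07 (SE 0.89, adjusted p = 0.147), with 0.697, 1.02 and 1.2 against 0.128 to 9.52 CPM, and was called without BBN bladder 4 (2.22, adjusted p = 0.0786). Cd274 had 8.38, 9.78 and 24.3 CPM against 1.82 to 33.1 CPM (0.11, SE 0.53, adjusted p = 0.906). Lag3 gave 1.93 (SE 1.2), Pdcd1lg2 2.0 (SE 1.18) and Cd86 0.16 (SE 0.53). So 4 of 10 genes were called higher, where 7.61% of all 18050 genes were, and 0 of 10 lower, where 5.74% were. Any single untreated bladder left out ended the calls of Pdcd1 (3.74 to 4.56) and Tigit (3.90 to 4.44), leaving out untreated bladder 2 or 3 ended that of Ctla4 (4.40 and 4.09), and leaving out untreated bladder 1 that of Havcr2 (1.53), which left 1 or 2 genes called. The share of all genes called fell in these fits as well, to between 2.74% and 2.8% higher and between 2.57% and 2.77% lower. The T cell sum was 15.1 to 39.0 CPM in untreated and 7.89 to 92.9 CPM in BBN bladders, with 0 of 14 genes called by edgeR, 1 at an unadjusted p under 0.05 and 3 called higher by DESeq2, and the macrophage sum was 442 to 469 against 304 to 929 CPM, with 3 of 11 genes called higher. The groups did not overlap in the sums of the urothelium, smooth muscle, fibroblast and neutrophil lists, while they overlapped in others, such as the B cell and adipocyte lists. Urothelium genes summed to 22785 to 23930 CPM in untreated and 1469 to 9781 CPM in BBN bladders, with 6 of 11 called lower. Smooth muscle genes were at 8999 to 10873 CPM against 978 to 7476 CPM, with 0 of 6 called by edgeR, 2 at an unadjusted p under 0.05 and 2 called lower by DESeq2. Fibroblast genes were at 3574 to 5061 CPM against 612 to 3448 CPM, with 2 of 5 called lower, and neutrophil genes were at 8.62 to 10.9 CPM against 17.0 to 232 CPM, with 3 of 5 called higher. The part of these cells in the rise of the receptor genes was not tested.

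Whether BBN acted differently on ureter and bladder was tested as an interaction, with UN against U set against BBN bladder against untreated bladder. For none of the 10 genes was the difference called by edgeR (0 of 10, against 2.23% of all 18959 genes), and 0 had an unadjusted p under 0.05 (DESeq2 called 0, with 1 at an unadjusted p under 0.05). The estimates were wide, from -1.88 for Lag3 (SE 1.08, adjusted p = 0.452) to 3.55 for Ido1 (SE 1.90, adjusted p = 0.414), and Cd274 had -1.36 (SE 0.82, adjusted p = 0.478).

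Without BBN, 3 of the genes were called between ureter and bladder, and with both ureters of a mouse summed only Lag3 was (3.21, adjusted p = 0.084). The summed fit called 4.39% of all genes higher and 3.69% lower. Lag3 was at 0.924 to 3.52 CPM in U and 0.0666, 0.139 and 0.496 CPM in untreated bladder, with no overlap (log2 fold change 3.18, SE 0.99, adjusted p = 0.0286). Havcr2 was at 0.31 to 1.46 CPM in U and 3.48, 4.20 and 4.69 CPM in untreated bladder (-2.02, SE 0.62, adjusted p = 0.0252). Ido1 was at 0.0637 to 0.248 against 0.836, 0.866 and 14.4 CPM (-4.70, SE 1.63, adjusted p = 0.0524). Thus 1 of 10 genes was called higher, where 6.62% of all genes were, and 2 of 10 lower, where 8.61% were (1256 and 1633 genes, or 933 and 2249 with libraries scaled by their totals only). The call of Ido1 was lost without untreated bladder 3 (-2.03, adjusted p = 0.675) and so was that of Havcr2 (-1.91, adjusted p = 0.102), while that of Lag3 was lost without untreated bladder 1 (2.94, adjusted p = 0.143) or 2 (2.76, adjusted p = 0.152). Cd274 was higher in all 6 U libraries than in the 3 untreated bladders, although not called (1.58, SE 0.70, adjusted p = 0.149). With the mouse as a block it was called (1.76, adjusted p = 0.000103), in a fit that still took both ureters of a mouse as 2 libraries, and with the ureters summed it was not (1.58, adjusted p = 0.309). Summing gave -1.997 for Havcr2 (adjusted p = 0.13) and -4.72 for Ido1 (adjusted p = 0.224). Adipocyte genes summed to 40434 to 63439 CPM in U and 440 to 2159 CPM in untreated bladder, with 5 of 5 called higher in U, and their part was not tested.

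UT and BBN bladder, the tissues of the same exposed mice, differed in 4 genes, all higher in UT, where 6.99% of all genes were called higher and 21.9% lower, 28.8% in all (1325 and 4143 genes, or 1714 and 3247 with libraries scaled by their totals only). Without the 4 shallow libraries, 3 of them BBN bladders, the balance turned, with 1458 genes higher and 672 lower. Pdcd1 had a log2 fold change of 1.73 (SE 0.55, adjusted p = 0.015), and 9 of 11 UT libraries exceeded every BBN bladder. Cd274 had 1.42 (SE 0.41, adjusted p = 0.00843), Cd86 1.14 (SE 0.32, adjusted p = 0.00735) and Ctla4 1.44 (SE 0.63, adjusted p = 0.0777). In the 10 mice with both tissues, Cd274 and Pdcd1 were higher in UT in 10 of 10, Cd86 in 9, Ctla4, Pdcd1lg2 and Lag3 in 8, and Ido1 in 4. These counts used CPM over library totals, without the scaling factors that the fits applied (TMM). The factors were 0.655 and 0.658 for BBN bladder 1 and 3 and 0.989 and 1.08 for UT 1 and 3. Cd274 was at 8.4 against 7.68 CPM in mouse 1 and 13.7 against 9.87 in mouse 3, so its order in these mice depends on the scaling. Without UT 2, Cd274 gave 0.69 and was not called, while Ido1 gave -1.50 and was called lower (adjusted p = 0.0896). Ctla4 was not called without any 1 of UT 3, 5R, 5L or 8 or BBN bladder 1, 6, 7, 8 or 10 (1.26 to 1.43). With the mouse as a block, Pdcd1 and Cd86 were called and Cd274 (0.93, adjusted p = 0.15) and Ctla4 (1.13, adjusted p = 0.266) were not, and limma with voom weights per group called 0, with 2 at an unadjusted p under 0.05. In UT against BBN bladder, 9 of 14 T cell genes, 6 of 6 B cell genes, 5 of 11 macrophage genes and 5 of 5 adipocyte genes were called higher too, and their part was not tested.

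To set the receptor genes beside the T cells themselves, counts were divided by the summed counts of Cd3d, Cd3e and Cd3g, the invariant chains of the T cell receptor complex. The median ratio for Pdcd1 was 0.0247 in U, 0.229 in UN, 0.47 in UT, 0.0282 in untreated bladder and 0.243 in BBN bladder. Over the pooled counts of a group, which give most weight to the libraries with most T cell counts, UN, UT and BBN bladder had nearly equal ratios of 0.204, 0.22 and 0.217, against 0.0288 in U. For Pdcd1, 5 of the 7 UN libraries and 10 of the 11 UT libraries lay above 0.0707, the highest U value. Ctla4 was alike, at 0.014 in U, 0.151 in UN, 0.3 in UT, 0.0185 in untreated bladder and 0.272 in BBN bladder, with pooled ratios of 0.213 in UN, 0.213 in UT and 0.211 in BBN bladder. Tigit rose less, with medians of 0.032 in U, 0.0716 in UN, 0.112 in UT, 0.0637 in untreated bladder and 0.368 in BBN bladder. Its pooled ratios were 0.0362 in U, 0.0707 in UN and 0.0795 in UT. The lowest UT value of Tigit (0.0196) was below its highest U value (0.0923). Lag3 had a median of 0.28 in U (0.093 to 0.354), 0.0688 in UN (0.0311 to 0.398) and 0.0516 in UT (0.0188 to 0.35), so that here U was on top. These ratios are descriptions of whole tissue, in which other cells can carry the receptor genes. Havcr2, which macrophages carry too, was at 0.0056 of the summed counts of Adgre1, Csf1r and Cd68 in U, 0.0369 in UN, 0.0429 in UT, 0.0289 in untreated bladder and 0.0665 in BBN bladder (medians). Cd86 over the same macrophage genes had medians between 0.0446 and 0.0698 in the 5 groups, while single libraries ran from 0.0137 in BBN bladder to 0.114 in UT.

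**Figure D4:**
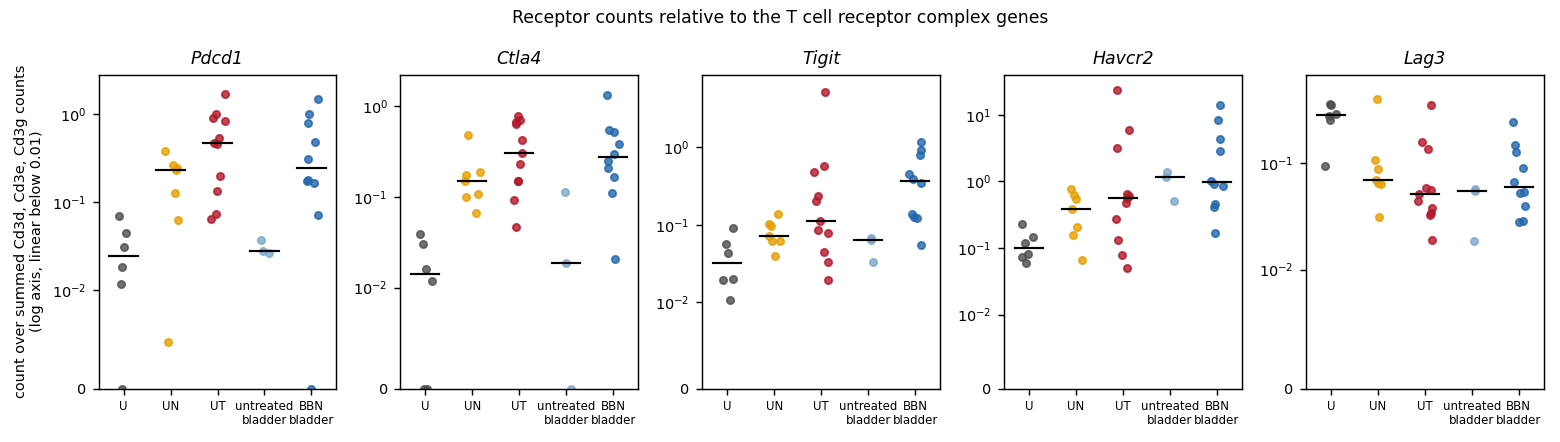
Count of each receptor gene divided by the summed counts of Cd3d, Cd3e and Cd3g in every library, by group, on a log axis that is linear below 0.01, with lines at the group medians. The median ratio of Pdcd1 went from 0.0247 in U to 0.47 in UT, while that of Lag3 went from 0.28 to 0.0516.

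Genes of related pathways were counted in lists, beside shares of all genes called higher of 18.7% in UT against U, 12.5% in UN against U and 7.61% in BBN bladder. When both ureters of a mouse were summed, UN against U gave 147 genes higher and 10 lower of all genes instead of 1950 and 189, and of all the pathway lists that follow 1 gene, a costimulatory one, was called there. Summing lowered the shares in UT against U from 18.7% higher and 12.3% lower to 13.7% and 8.23%. Both the UT and the UN counts against U below rest on both ureters of 3 mice taken as 6 libraries. Costimulatory genes, which oppose the checkpoints, were often called higher. Of 14 listed, 13 were tested and 10 were called higher in UT against U (median log2 fold change 2.98), with Tnfsf4 (OX40 ligand) at 5.92, Tnfsf18 (GITR ligand) at 3.82 and Tnfsf9 (4-1BB ligand) at 3.73. In UN against U 8 of 13 were called higher (median 1.89), and in BBN bladder 5 of 12 (median 2.1), where Tnfsf4 gave 6.77. Of 22 further inhibitory genes, 10 were called higher in UT against U (median 0.96) and 8 in UN against U (median 1.02). Fgl1, a ligand of LAG-3, rose by 5.34 in UT and 6.34 in UN, and Vtcn1 (B7-H4) rose by 4.66 and 3.41. In BBN bladder 3 of 21 were called (median 1.09, and 7.61% of all genes), among them Vtcn1 (4.17) and Lgals9, a TIM-3 ligand (1.92). Ceacam1, another partner of TIM-3, was the gene of this list called in UT against UN (1.99, SE 0.57, adjusted p = 0.0754). The call was lost with the mouse as a block (1.55, adjusted p = 0.728) or as a random effect (1.58, adjusted p = 0.146), with libraries of a mouse summed, in the 2 groups alone, without libraries under 8000000 counts, with library totals, limma-trend and voom weights (adjusted p from 0.119 to 0.333 over these 6), and without any 1 of UT 2 (1.27), UT 5R, 5L or 10 or UN 2, 6 or 9 (1.83 to 2.03).

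Of 9 further genes of tryptophan and adenosine metabolism, 8 were tested in the ureter, and 4 were called higher and 1 (Nt5e, named after its value was seen) lower in UT against U, with a median log2 fold change of 0.75. Kynu (3.94), Haao (2.88) and Kmo (2.23), which encode enzymes downstream of IDO1 in the kynurenine pathway, were the highest. In UN against U 2 were called higher (median 1.10), Kynu by 2.88 and Tdo2, the gene of another tryptophan-degrading enzyme, by 2.04. Tdo2 was called lower in UT than in UN (-1.73, SE 0.51, adjusted p = 0.0773), a call lost with the mouse as a block (-1.55, adjusted p = 0.728) or as a random effect (-1.203, adjusted p = 0.174), in the 6 fits named for Ceacam1 (adjusted p from 0.13 to 0.429), in the fit of all 37 libraries (adjusted p = 0.176) and without any 1 of UT 2, 5R, 5L or 10 or UN 2 or 6 (-1.83 to -1.199). In the bladder 0 of 9 were called by edgeR, with 1 at an unadjusted p under 0.05 and 1 called higher by DESeq2.

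Of 14 genes of the interferon-γ axis and of PD-L1 regulation, 13 were tested and 4 were called higher in UT against U (median 0.67), among them the feedback inhibitor Socs1 (1.86), the receptor chain Ifngr2 (1.67) and Ciita, the MHC class II transactivator (1.42). In UN against U, only Ifngr2 was called in this list (1 of 13, where 12.5% of all genes were called, with a fold change of 1.15 on the log2 scale and a median of the list 0.07), and in UT against UN and in BBN bladder 0 of 13 each were called by edgeR or DESeq2, with 4 and 0 at an unadjusted p under 0.05. The next list held the MHC class II genes H2-Aa, H2-Ab1 and H2-Eb1, whose products LAG-3 binds, and Cd74, the gene of the invariant chain. Of these 4 genes, 0 were called by edgeR or DESeq2 in UT or UN against U, and 0 had an unadjusted p under 0.05 (medians 0.77 and 0.82). In UT against BBN bladder 3 of the 4 were called higher, where 6.99% of all genes were, Cd74 by 1.59, H2-Ab1 by 1.2 and H2-Eb1 by 1.07. Of 11 genes of inhibitory signalling and T cell exhaustion, 6 were called higher and 2 lower in UT against U, where 12.3% of all genes were called lower. Eomes (2.91), Nr4a1 (2.31) and Batf (2.29) were the highest, and the lower ones, named after their values were seen, were Tbx21 and Tox2 (-1.69). In BBN bladder Tox2 fell by 5.0, and Tox2 was the 1 gene of this list with a called interaction of tissue and BBN (3.68, SE 0.99, adjusted p = 0.0528). Of all genes, 2.23% had a called interaction.

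The genes most like each member were named by the Spearman correlation of log2(CPM + 1) over the 37 libraries, among 15374 genes with a mean of at least 1 CPM. The libraries share mice, depth and tissue content, so this is a description. Cd274 was closest to the interferon-inducible GTPase genes Gbp4 (0.88), Gbp10 (0.85) and Gbp7 (0.85), which are paralogues of 1 family, with counts that are uncertain where reads are shared. Its correlation with the other 9 checkpoint genes was between -0.06 and 0.43. Ctla4 was closest to Cytip (0.90), Gpr171 (0.89) and the activation marker Cd69 (0.89), and Pdcd1 to Serpina3h (0.87), Serpina3f (0.87) and Cd300lf (0.86). The correlation between Pdcd1 and Ctla4 was 0.84. Lag3 was closest to Nkg7 (0.84), a gene of cytotoxic granules, Npc2 (0.81) and Cd7 (0.80), and Tigit to Tapbpl (0.85), Eomes (0.84) and Plcxd2 (0.83). Cd86 was closest to Arhgap9 (0.94), Coro1a (0.92) and the myeloid lysozyme gene Lyz2 (0.91), Cd80 to Fes (0.91), Dapp1 (0.86) and Tcirg1 (0.85), and Havcr2 to Pdlim1, Mastl (both 0.91) and Plekhs1 (0.90). Pdcd1lg2 was closest to Gpr132 (0.82), Cd84 (0.80) and Nfkbid (0.80), and Ido1 to Phf11c (0.81), Gm5431 (0.79) and Clca2 (0.78).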

How the data were processed

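Ureter and bladder RNA was made into libraries with the SMARTer HT and Nextera XT kits, which do not mark strand, and sequenced on a DNBSEQ-G400RS with paired reads of 100 bases. The authors deposited 1 table of estimated counts per gene symbol on GRCm38, without normalization, in which 21.1% of nonzero values were fractional. The submitters' processing notes name TopHat2 2.1.1 and Cuffdiff 2.2.1, and the counting program is not given in the sources used here. Each of the 37 columns carried the name of 1 library, and the sample titles gave the groups.

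After rounding to whole numbers, the counts went into the quasi-likelihood test of edgeR (version 4.0.16, R 4.3.3) with TMM scaling and the filterByExpr filter, and p was adjusted by Benjamini-Hochberg over all genes. UT, UN and U were fitted together (24 libraries), the bladders together (13), and comparisons across organs and the interaction over all 37. All 11 UT libraries were used. DESeq2 1.42.0 and limma 3.58.1 served as alternatives, with other scaling, no filter, single libraries left out, shallow libraries left out, and the mouse as a block, as a random effect or summed. The procedure was run on simulated counts with the same dispersion in every group and independent libraries. That setting lacks the unequal spread and shared mice of these data, so it cannot tell how they affect the calls. CPM was computed from the unrounded counts in Python 3.11.15 (numpy 2.4.6, pandas 2.3.3). Depth limits genes with few counts, and counts of single libraries carry counting error.

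All 10 checkpoint genes are named. From each list of related genes, up to 3 called genes with the largest fold change are named, and for likeness the 3 closest genes. The members and lists were chosen with earlier results of these data known. The number in a title stands for the mouse, which pairs its tissues. Deviations of paired UT and UN libraries from their group's mean correlated with a median of -0.00278 across genes (7 pairs, -0.179 to 0.689). For UT and BBN bladder the median was 0.123 (11 pairs, -0.198 to 0.56), and for U and untreated bladder 0.0139 (6 pairs, -0.16 to 0.165). Libraries of 1 group differed by a chi-square of at least 7.37 per degree of freedom, so none was counted as a copy.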

Additional observations from a re-analysis of the deposited data

Results flagged for a closer look

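Among 30 sets of 4 to 10 libraries (a gene in a group), the library farthest from the rest was separated by more than Dixon's 95% limit in 4, where chance would give about 1 in 20. Cd274 in U 5 was 5.70 on the log2(CPM + 1) scale, with the next U library at 5.13 (50.9 and 34.0 CPM). Pdcd1lg2 in U 3 was 0.51, with the next at 0.17, from a handful of counts. Ctla4 in UN 3 was 3.95, with the next UN library at 2.06 (14.4 and 3.16 CPM). This library also had the highest Pdcd1, Havcr2, Cd80 and Cd86 levels in UN, and 3 receptor genes were called in UT against UN without it. Cd86 in UN 6, the shallowest ureter library, was 2.28, and the next was 3.85. UT, with 11 libraries, and untreated bladder, with 3, were not examined in this way, so that UT 2 with its 564 CPM of Ido1 does not appear here.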

How the results depend on the processing

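The 4 BBN comparisons were repeated under other scaling, filters, tools and sets of libraries, and so were the comparisons between organs. Scaling by library totals moved the median log2 fold change of all genes from -0.02 to 0.20 in UT against UN, from 0.11 to 0.39 in UT against U, from 0.25 to -0.03 in BBN bladder, from -0.01 to -0.32 in U against untreated bladder and from -0.02 to 0.12 in UT against BBN bladder. Over the fits other than those leaving out 1 library, the number of genes called of all genes tested ran from 0 to 1391 in UT against UN (864 in the fit reported), from 157 to 2624 in UN against U (2139), from 2004 to 5799 in BBN bladder (2409), from 1528 to 5673 in U against untreated bladder (2889) and from 1198 to 7911 in UT against BBN bladder (5468). For the interaction it ran from 422 to 972 in the 3 fits that kept UT (422 in the fit reported). A fit of the 4 groups without UT called 1.52% of all genes higher and 0.548% lower for the interaction, against 1.76% and 0.469% in the fit reported. UT against U kept within 1.5 times.

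Of the checkpoint genes, 1 instead of 0 was called in UT against UN by DESeq2. In UN against U, 5 instead of 8 were called with the 2 groups alone or a random effect for the mouse, and 0 with both ureters of a mouse summed. The shares of all genes called higher there were 10.5%, 4.8% and 0.901%, and lower 2.54%, 3.51% and 0.0613%. In BBN bladder 7 instead of 4 were called with voom weights per group, which called 18.1% of all genes higher and 13.3% lower, in U against untreated bladder 1 instead of 3 with ureters summed, and in UT against BBN bladder 2 instead of 4 with RLE and 0 with voom weights. In UT against BBN bladder, RLE called 5.5% of all genes higher and 25.4% lower, and voom weights 2.62% and 4.29%. Leaving out 1 library gave 0 to 3 genes in UT against UN, 1 to 5 in BBN bladder and 1 to 3 in U against untreated bladder.

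With the replicate block (mouse), 0 genes were called in UT against UN, 4 instead of 3 in U against untreated bladder, where only 6 were tested, and 2 in UT against BBN bladder. Of all genes, the block fits called 0.0066% higher and 0% lower in UT against UN and 15.6% and 14.4% in U against untreated bladder. In UT against BBN bladder the shares were 3.89% and 4.12%. UN against U and the bladder comparison share no mice and have no such fit. With the block, Cd80 in U against untreated bladder turned to 0.047, and in UT against BBN bladder Havcr2 turned to -0.18, Cd80 to 0.011, Tigit to 0.11 and Ido1 to -0.99.

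Log2 fold changes that changed sign were all of genes not called in the fit reported. Cd86 in UT against UN was -0.073 with voom weights, -0.092 without libraries under 8000000 counts and -0.034 with a random effect for the mouse, and Cd274 in UT against U was 0.13 with library totals. In BBN bladder, Cd86 was -0.053 and Cd274 -0.075 with library totals, Cd86 -0.075 with limma-trend and -0.045 with voom weights, and Cd274 -0.087 with the library code range as a covariate. In U against untreated bladder, Cd80 was 0.055 with RLE, 0.054 without shallow libraries, 0.042 with the 2 groups alone and 0.050 with DESeq2, and with library totals Ctla4 was -0.029 and Cd86 -0.14. In UT against BBN bladder, Tigit was 0.14 with library totals, 0.14 with limma-trend, 0.49 with voom weights, 0.84 without shallow libraries and 0.45 with the random effect. Havcr2 was -0.052 with limma-trend, -0.14 with voom weights and -0.14 with the random effect, and Cd80 0.20 with limma-trend. Ido1 was -0.61 with limma-trend, -0.78 with voom weights, -0.75 with the random effect and -1.62 with DESeq2, which called it lower, as the fit without UT 2 did. The cause of these changes was not tested.

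Leaving out 1 library, the values of results that changed sign ran from -0.092 to 0.21 (Cd86) and -0.37 to 3.42 (Ido1) in UT against UN, -0.83 to 0.019 (Cd274) in UT against U, -0.43 to 0.36 (Lag3) in UN against U and -0.18 to 0.74 (Cd274) in BBN bladder. They ran from -0.20 to 0.15 (Cd80), -0.52 to 1.77 (Ctla4) and -1.99 to 0.082 (Pdcd1lg2) in U against untreated bladder, from -0.29 to 0.33 (Havcr2), -1.50 to 1.55 (Ido1) and -0.48 to 0.16 (Tigit) in UT against BBN bladder, and from -0.68 to 0.15 (Pdcd1) and -1.17 to 1.11 (Ctla4) for the interaction. Low counts in the untreated groups, with 10 for Ctla4 in U and 5 in untreated bladder, limit how well any fold change of Ctla4, Pdcd1 or Pdcd1lg2 is known.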
